A study of Rattus norvegicus with 28 samples.

Results

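Lungs of rats ventilated after acute lung injury were compared with lungs of uninjured rats ventilated in the same way, across all genes of the deposited table. The comparison uses 7 of the 28 libraries of the series, chosen by their labels: 3 labelled acute_VCV and 4 labelled healthy_VCV. VCV is volume-controlled ventilation, here with a constant tidal volume, and both groups received it. The rats were Sprague Dawley, and each library holds poly(A) RNA from the upper lobe of the right lung, sequenced by a strand-specific method. The labels put acute_VCV in the study arm ventilated after acute injury and healthy_VCV in the arm ventilated without earlier injury. How the injury was made, how long the rats were ventilated, their age and their sex are not given in the labels. Of 17002 genes in the table, 14908 were tested, those whose deposited values averaged 10 or more across the series, and 2094 were not.

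A further 3 groups are used where their values stand beside a result. Rats labelled control_blank (n = 3) had neither lung injury nor ventilation. Rats labelled acute_noisy (n = 4) and healthy_noisy (n = 3) were the injured and uninjured arms under ventilation with a variable tidal volume. Values are read counts divided by a size factor for each library, called deposited values here, and differences are on the scale of log2(deposited value + 1), given ± SE from limma. A gene passed the test when its limma p, adjusted over all genes tested by the Benjamini-Hochberg method, was under 0.05. The labels do not say that each library is a separate animal, so p-values measure the spread between libraries.

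Depth differed between the groups, with 28800053 to 31923838 reads in acute_VCV and 17855648 to 21510253 in healthy_VCV. Library titles begin with a code, and its first 2 digits (called the title series here) also differed. All acute_VCV and control_blank libraries are in title series 12, while 3 healthy_VCV libraries are in 14 and 1 is in 15. The labels do not say what the code means, and title series and injury cannot be told apart in this comparison. For this reason the difference from control_blank, in the same title series as acute_VCV, is given beside many results. Lung markers were present in every library: Sftpc, the surfactant protein of alveolar type 2 cells, was at 0.43 ± 0.22 and did not pass (limma adjusted p = 0.103).

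Acute lung injury damages the thin barrier of alveolar epithelium and capillary endothelium, so that protein-rich fluid and leukocytes enter the airspaces. Injured epithelium and resident macrophages release cytokines and chemokines, largely through the transcription factors NF-kB and AP-1, and these draw neutrophils into the lung. Alveolar type 1 cells form the gas exchange surface, while alveolar type 2 cells make surfactant and can replace type 1 cells. Mechanical ventilation stretches all of these cells, and stretch by itself induces inflammatory and growth-related genes in lung tissue.

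Between acute_VCV and healthy_VCV, 7829 of 14908 genes passed the test (52.5%), of which 3894 were higher (26.1%) and 3935 lower (26.4%) in acute_VCV. The median difference over all genes was -0.01 and the median absolute difference 0.59. Counts of list members below are to be read against the 26.1% higher and 26.4% lower over all genes. The groups did not overlap for 8878 genes (59.6%), 4406 of them higher (29.6%) and 4472 lower (30.0%) in acute_VCV. The largest rises and falls named here are those of genes with a symbol, no overlap between the groups and a mean of 50 or more where it was higher. On the first principal component of the 7 libraries, with 72.1% of the variance, the groups stood apart, and acute_VCV_040 stood apart from the other acute_VCV libraries on the second, with 9.6%.

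The largest rise was that of Krt17 (ENSRNOG00000026371), a keratin of basal and wounded epithelium. Its deposited values were 8345, 7180.4 and 9031 in acute_VCV_040, acute_VCV_045 and acute_VCV_049, and 21.5, 2.82, 16.6 and 5.53 in healthy_VCV_025, healthy_VCV_057, healthy_VCV_060 and healthy_VCV_062, the order used for all genes. Every acute_VCV value was far above every healthy_VCV value, and the difference was 9.67 ± 0.76 (limma adjusted p = 8.39e-09). Il24 (ENSRNOG00000004470), a cytokine of the interleukin 10 family that acts on epithelium, had values of 1289, 1108 and 1391 against 4.14, 1.88, 2.63 and 1.58. It rose by 8.52 ± 0.73 (limma adjusted p = 1.16e-08). Prss22 (ENSRNOG00000039698), a serine protease of airway epithelium, had values of 2782, 2434.7 and 2811 against 15.7, 12.2, 16.6 and 11.1, and rose by 7.50 ± 0.63. For these 3 genes the acute_VCV libraries lay close together and far above every healthy_VCV and control_blank library.

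Calcb, a calcitonin gene-related peptide, read 432, 98.8 and 407 in the acute_VCV libraries and 0.83, 1.88, 2.63 and 0.79 in the healthy_VCV libraries, a difference of 6.75 ± 0.70. Fosl1, the AP-1 subunit Fra-1, read 1515.3, 1235 and 1441 against 21.5, 18.8, 20.1 and 28.4, a difference of 5.92 ± 0.60 (limma adjusted p = 6.99e-08). Ptx3, a secreted pattern recognition protein, read 3039.5, 3869.5 and 5218 against 74.5, 77, 65.7 and 89.3, a difference of 5.68 ± 0.62. All acute_VCV libraries were above all healthy_VCV libraries for each of them. Acta1, the actin of skeletal muscle, read 1296, 1412 and 2018 against 34.8, 44.1, 57 and 45 and rose by 5.09 ± 0.43. The other members of the 15 largest rises were Il6, Reg3b, Gcnt3, Csf3, Sectm1b, Ccl7, Tfpi2 and Trh, at 4.78 to 6.90. All 15 were also higher in acute_VCV than in control_blank, at 3.01 to 7.45, where 37.3% of all genes passed and 20.6% were higher. Between healthy_VCV and control_blank 0 of the 15 were higher and 5 lower, against 29.3% and 28.1% of all genes (57.4% in either direction). Both comparisons share libraries with the one that chose the genes.

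**Figure D1:**
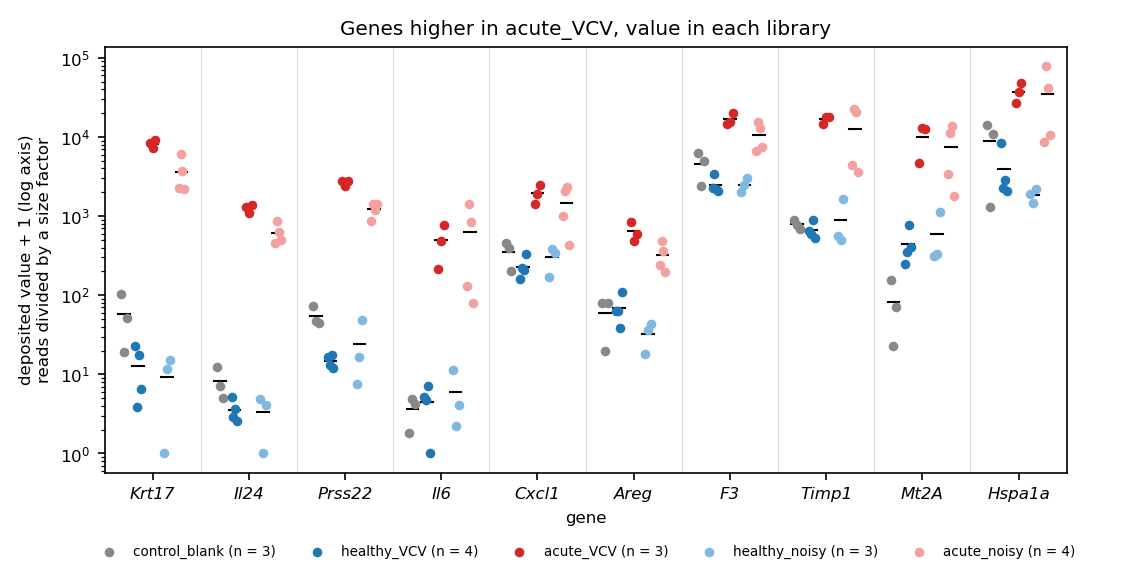
Deposited value + 1 (log axis) of 10 genes that were higher in acute_VCV, with 1 point per library in each of 5 groups and a bar at the group mean. For Krt17, Il24, Prss22 and Timp1 the red acute_VCV points lie close together, far above the dark blue healthy_VCV points, and the pale red acute_noisy points are raised as well.

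Some cytokines rose and others did not pass the test. Of 19 interleukins and colony-stimulating factors tested, 7 were higher in acute_VCV and 0 lower, against 26.1% and 26.4% of all genes. Their median was 0.65. Il6, the main inducer of the acute phase response, read 214, 489.8 and 771 in acute_VCV and 4.14, 3.76, 6.13 and 0 in healthy_VCV, a difference of 6.90 ± 1.19 (limma adjusted p = 4.92e-05). Its acute_VCV values were spread, with acute_VCV_040 the lowest, yet all lay far above every healthy_VCV value. Csf3, the growth factor of neutrophils, read 22.8, 35.1 and 169.9 against 0, 0, 2.63 and 0, with most healthy_VCV libraries at 0, so its fitted difference of 5.26 depends on the pseudocount. Tnf, an early inflammatory cytokine, read 181, 295 and 428 against 43.1, 71.4, 71 and 122, a difference of 1.96 ± 0.47. Clcf1, a cytokine of the interleukin 6 family, rose by 1.31 ± 0.30. Il1rn, the secreted antagonist of interleukin 1, passed at 1.31 ± 0.49 with overlapping groups, and without acute_VCV_049 it was at 0.68 (limma adjusted p = 0.273). Nor did Il1rn pass without acute_VCV_045, healthy_VCV_025 or healthy_VCV_057, at 0.99 to 1.30, or with these groups alone. The interleukin 1 genes Il1b at 0.65 and Il1a at -0.51 did not pass. Lif, a cytokine of the interleukin 6 family, was at 1.26 and did not pass, though it did with edgeR, a pseudocount of 10, quantile normalization or these groups alone, at 0.93 to 1.58. Without acute_VCV_040 the list had 6 higher and 1 lower.

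Of 28 chemokines tested, 15 were higher and 0 lower, with a median of 1.21. Ccl2, which attracts monocytes, read 1366, 516 and 713 against 42.2, 24.4, 61.3 and 25.3, a difference of 4.44 ± 1.01. Its relative Ccl7 read 1026, 299.7 and 394 against 33.1, 5.64, 25.4 and 13.4, a difference of 4.85 ± 0.83. In both, acute_VCV_040 was the highest of the acute_VCV libraries. Ccl22, which attracts T cells, rose by 3.82 ± 0.92. Among the neutrophil attractants, Cxcl1 read 1422, 1906 and 2474 against 157, 221, 210.3 and 326, a difference of 3.09 ± 0.62 (limma adjusted p = 0.000236). Cxcl2 read 126, 397 and 716 against 31.5, 18.8, 61.3 and 83.7, a difference of 2.95 ± 0.89, and without acute_VCV_049 it was at 2.39 (limma adjusted p = 0.0534). In both, acute_VCV_040 was the lowest of its group, while it was the highest for Ccl2 and Ccl7. Chemokines that did not pass include Ccl20 at 1.04, Ccl5 at 0.16 and Cxcl3 at -0.15. Against control_blank, 6 of 28 chemokines were higher and 1 lower in acute_VCV, near the 20.6% higher over all genes. Between healthy_VCV and control_blank 0 were higher and 7 lower, against 28.1% lower over all genes.

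Promoters of 3 inducible genes are shown because each holds a match to the NF-kB site in the 250 bases before its start. The sequences are from RefSeq on build GRCr8, 5′ to 3′ on the strand of the gene, with matches in capitals.
Il6 (chr4:5894576-5894825, minus strand): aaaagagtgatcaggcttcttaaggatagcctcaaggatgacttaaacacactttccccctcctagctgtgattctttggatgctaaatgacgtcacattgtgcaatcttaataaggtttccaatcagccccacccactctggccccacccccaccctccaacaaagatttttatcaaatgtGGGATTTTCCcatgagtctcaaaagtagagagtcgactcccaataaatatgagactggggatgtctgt
Cxcl1 (chr14:17479322-17479571, minus strand): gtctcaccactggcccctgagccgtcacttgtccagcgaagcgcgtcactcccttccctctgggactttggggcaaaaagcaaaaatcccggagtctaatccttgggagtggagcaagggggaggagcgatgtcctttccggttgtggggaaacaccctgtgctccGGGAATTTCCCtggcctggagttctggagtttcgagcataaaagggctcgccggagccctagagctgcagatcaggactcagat
Cxcl2 (chr14:17467256-17467505, minus strand): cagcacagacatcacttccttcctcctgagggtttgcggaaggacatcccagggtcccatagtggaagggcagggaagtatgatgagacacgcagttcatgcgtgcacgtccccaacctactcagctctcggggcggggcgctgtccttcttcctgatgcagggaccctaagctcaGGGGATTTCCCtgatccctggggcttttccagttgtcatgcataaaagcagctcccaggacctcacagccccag
The match lies 59 to 68 bases before the start of Il6, and overlapping matches span 74 to 84 bases before that of Cxcl1 and 64 to 74 bases before that of Cxcl2. Of the 15 chemokines that rose, 12 have a promoter in the RefSeq table and 6 of these hold the match: Cxcl1, Cxcl2, Cxcl6, Cxcl10, Cxcl11 and Ccl7. Of these, Cxcl10 (2.26 ± 0.93) and Cxcl11 (2.55 ± 1.01) did not pass when any of acute_VCV_045, acute_VCV_049, healthy_VCV_025, healthy_VCV_057 and healthy_VCV_062 was left out, at 1.85 to 2.35 and 2.28 to 2.64. Of the 15 largest rises, 11 have a promoter there and 4 hold it (Il6, Ptx3, Ccl7 and Tfpi2). The same match is in 6.41% of all 27457 promoters of this length. Both strands were searched and the genes were chosen after their values were seen. A match is a description of the letters, and binding was not measured.

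Of 15 NF-kB subunits and feedback genes, 8 were higher and 0 lower, with a median of 0.70, and 5 were higher without acute_VCV_049 (1 lower) or healthy_VCV_057. Bcl3, a nuclear partner of NF-kB, read 2566, 2430.2 and 4153 against 655, 579.6, 1112 and 1051, a difference of 1.86 ± 0.45. Tnip2, a feedback inhibitor, read 1524, 2116 and 2106 against 526, 534, 713 and 693 and rose by 1.63 ± 0.23 (limma adjusted p = 5.09e-06). Zc3h12a, an RNase that removes cytokine transcripts, rose by 1.47 ± 0.32. The subunit Rela rose by 0.55 ± 0.14, while the subunit Nfkb1 was at 0.17 and the inhibitor Nfkbia at 0.35, and neither passed. Of 21 immediate early factors, 7 were higher and 1 lower (26.1% and 26.4% of all genes), with a median of 0.76. With these groups alone 13 were higher, and none was lower without any 1 of 6 libraries, all but acute_VCV_049. Besides Fosl1, Myc read 1923, 2143 and 2589 against 649, 651, 695 and 696, a difference of 1.71 ± 0.29, and the small Maf factor Maff rose by 1.69 ± 0.28. The classic early genes Fos (-0.69), Jun (0.47) and Egr1 (0.95) did not pass, though Jun and Egr1 did with these groups alone. Atf3, a stress-induced factor, read 949.6, 1143 and 1839 against 403, 277, 379 and 481 and passed at 1.74 ± 0.71, but not when any 1 of the 7 libraries was left out, at 1.46 to 1.94 (limma adjusted p = 0.0504 to 0.142). Of 14 MAPK phosphatases and Sprouty family genes, which switch off growth factor signals, 6 were higher and 2 lower, with 3 higher without acute_VCV_049. Spred3 rose most, by 2.21 ± 0.29, and Spred2 fell most, with a difference of -1.45 ± 0.31.

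Of 11 receptors and feedback genes of the interleukin 6 family, 5 were higher and 1 lower. The number higher was 2 without acute_VCV_049 and 3 without acute_VCV_045, healthy_VCV_025 or healthy_VCV_057. Osmr, the receptor subunit for oncostatin M, read 1000.2, 1578 and 2054 against 381, 305, 506 and 326 and rose by 1.99 ± 0.56. Socs3, the feedback inhibitor of this pathway, read 1830.3, 3169 and 4068 against 1322, 770.4, 1584 and 1102 and rose by 1.31 ± 0.37. Lifr, the receptor subunit for leukemia inhibitory factor, read 248, 325 and 491 against 3899, 3390.5, 4498 and 3498, a difference of -3.47 ± 0.48 (limma adjusted p = 2.97e-06). Its healthy_VCV values were also above those of control_blank, which were 166, 321 and 1119, and its difference from control_blank was -0.20 in acute_VCV and 3.28 in healthy_VCV. Of 25 interferon response genes, 10 were higher and 0 lower, with a median of 0.92, but 3 were higher without acute_VCV_045 (median 0.49). Isg20, an antiviral nuclease, rose by 1.46 ± 0.27. Isg15, a ubiquitin-like protein induced by interferon, read 679, 4513 and 2276 against 317, 215, 525 and 479, a difference of 2.40 ± 0.71, with acute_VCV_045 the highest. Without that library it was at 1.78 (limma adjusted p = 0.0636).

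Of 12 keratins and other epithelial injury genes tested, 9 were higher and 1 lower, with a median of 1.70. Cldn4, a tight junction protein, read 4165, 2965 and 3559 against 257, 287, 276 and 218 and rose by 3.77 ± 0.34 (limma adjusted p = 2.43e-08). Krt8, a keratin of simple epithelia, read 20057, 15592 and 20264 against 3849, 3288, 4956 and 3464 and rose by 2.27 ± 0.25, and its relatives Krt19 and Krt7 rose by 1.73 ± 0.20 and 1.32 ± 0.21. For these 4 genes no acute_VCV library overlapped a healthy_VCV library. The basal cell keratin Krt14 read 66.1, 75.9 and 86.9 against 60.5, 5.64, 7.01 and 7.11, and healthy_VCV_025 reached almost the acute_VCV level. Krt4 was the member that fell, with a difference of -0.90 ± 0.29 and overlapping groups, and without acute_VCV_040 it was at -0.70 (limma adjusted p = 0.0818).

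Of 10 EGF family ligands, receptors and related genes, 2 were higher and 4 lower (2 without acute_VCV_045). Areg, a ligand of the EGF receptor, read 848, 485 and 591 against 63, 62.9, 37.7 and 107, a difference of 3.28 ± 0.64 (limma adjusted p = 0.000176). Hbegf, another ligand, read 652, 675 and 849 against 209.6, 156, 187 and 214 and rose by 1.92 ± 0.35. The receptor Erbb3 and the ligand Egf were lower, with differences of -1.51 ± 0.31 and -1.73 ± 0.29. The receptor Egfr was lower by a difference of -1.26 ± 0.43, and without acute_VCV_040 or acute_VCV_045 it was at -1.06 and -1.19 and did not pass. Erbb2, its partner, passed at -0.56 ± 0.20, and at -0.56 to -0.46 it did not without acute_VCV_045, acute_VCV_049 or healthy_VCV_057. Against control_blank, Egfr and Erbb3 in acute_VCV were at 1.01 and 0.77, and neither passed. Of 10 targets of the stretch-responsive factor YAP, 5 were higher and 3 lower (1 without acute_VCV_040). Cyr61, a matricellular protein, read 8052, 11298 and 10274 against 1904, 957, 1429.9 and 969 and rose by 2.95 ± 0.48. Ctgf, a relative of Cyr61, read 8447, 10565 and 6876 against 1296, 1652, 1743 and 1663 and rose by 2.43 ± 0.23 (limma adjusted p = 3.93e-08). Ankrd1, a nuclear ankyrin repeat protein, read 2336, 1676 and 1988 against 463, 439.7, 355 and 196. In control_blank Ankrd1 read 1450.7, 2014 and 1905, and from it acute_VCV was at 0.16 and healthy_VCV at -2.36.

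Of 12 alveolar type 1 cell markers tested, 6 were lower and 2 higher, with a median of -0.48. In tissue RNA, fewer cells of a type and less RNA per cell cannot be told apart. Rtkn2, a marker of type 1 cells, read 343, 444 and 478 against 2466, 2736, 2198 and 2616, a difference of -2.58 ± 0.36 (limma adjusted p = 3.79e-06). Akap5, a kinase anchoring protein, read 1002, 969.9 and 1713 against 6896, 4586, 5535 and 7635, a difference of -2.35 ± 0.34. The caveolins Cav2 and Cav1 had differences of -1.78 ± 0.25 and -1.05 ± 0.19, and Clic5, a chloride channel protein, one of -1.50 ± 0.18. These 5 genes were also lower than in control_blank, by log2 differences of -1.37, -1.09, -1.25, -0.88 and -1.18. Other defining markers did not fall with them. Aqp5, the water channel of type 1 cells, was at 0.07, Ager at 0.16 and Hopx at 0.26, and none of these passed, while Pdpn rose by 0.61 ± 0.14. The summed level of the 12 markers was 124560 to 147520 in acute_VCV and 139970 to 164310 in healthy_VCV.

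Of 10 alveolar type 2 markers, 3 were higher and 2 lower, near the shares of 26.1% and 26.4% over all genes, and 1 was lower without acute_VCV_045, acute_VCV_049 or healthy_VCV_062. Lpcat1, which remodels surfactant lipid, rose by 1.03 ± 0.15, and Slc34a2, the phosphate transporter of type 2 cells, fell with a difference of -0.87 ± 0.18. From control_blank they were at 0.21 and 0.09 in acute_VCV, neither past the test, and at -0.82 and 0.96 in healthy_VCV, both past it. Between acute_VCV and healthy_VCV, the surfactant proteins Sftpb at 0.33 and Sftpa1 at 0.28 did not pass. Scd, a desaturase of fatty acid synthesis, read 383, 535 and 751 against 5958, 4958, 5296 and 6570.3, a difference of -3.40 ± 0.40. Its control_blank values of 674, 1721 and 1762 overlapped those of acute_VCV only, and it was -1.24 from control_blank in acute_VCV and 2.16 in healthy_VCV. In the airways, Cyp2b1, a cytochrome P450 of club cells, read 2171, 2038 and 2099 against 13852, 14748, 11391 and 10434, a difference of -2.57 ± 0.36 (limma adjusted p = 4.53e-06). Scgb1a1, secreted in quantity by the same cells, was at 0.46 and did not pass. Of 8 club cell markers tested, 0 were higher and 2 lower. From control_blank, 4 of the 8 were lower in acute_VCV and 3 in healthy_VCV (16.7% and 28.1% of all genes). Of 13 ciliated cell markers 4 were lower and 1 higher than in healthy_VCV (0 without acute_VCV_040). The largest fall was that of Hydin, a protein of the motile axoneme, which read 13.9, 7.01 and 54.9 against 369, 320.4, 301 and 186. In control_blank Hydin read 41.3, 24.9 and 148.6. From control_blank, 12 of the 13 were lower in acute_VCV, while 10 were lower and 2 higher in healthy_VCV, with Hydin higher by 2.39. Their summed level was 9511 to 12879 in acute_VCV, 10542 to 14572 in healthy_VCV and 30807 to 44297 in control_blank.

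Epithelial ion and water transport genes were lower in 5 of 12 tested and higher in 1 (2 without acute_VCV_045 or healthy_VCV_057). Aqp4, a water channel of airway epithelium, read 437, 824 and 479 against 1334, 2706, 1333 and 1830.2, a difference of -1.63 ± 0.27. Scnn1g, a subunit of the sodium channel that clears alveolar fluid, read 918, 786 and 577 against 1436, 1094, 1428 and 1692, a difference of -0.90 ± 0.22. Its partner subunits Scnn1a and Scnn1b were at -0.47 and -0.24 and did not pass, though Scnn1a did with these groups alone (-0.47), after quantile normalization (-0.65) and when centred by gene span (-0.61). Slc12a2, a chloride cotransporter, had a difference of -0.61 ± 0.12. Aqp3, a water and glycerol channel of basal cells, rose, reading 145, 342 and 76.5 against 10.8, 29.1, 4.38 and 7.9, a difference of 3.78 ± 0.68.

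**Figure D2:**
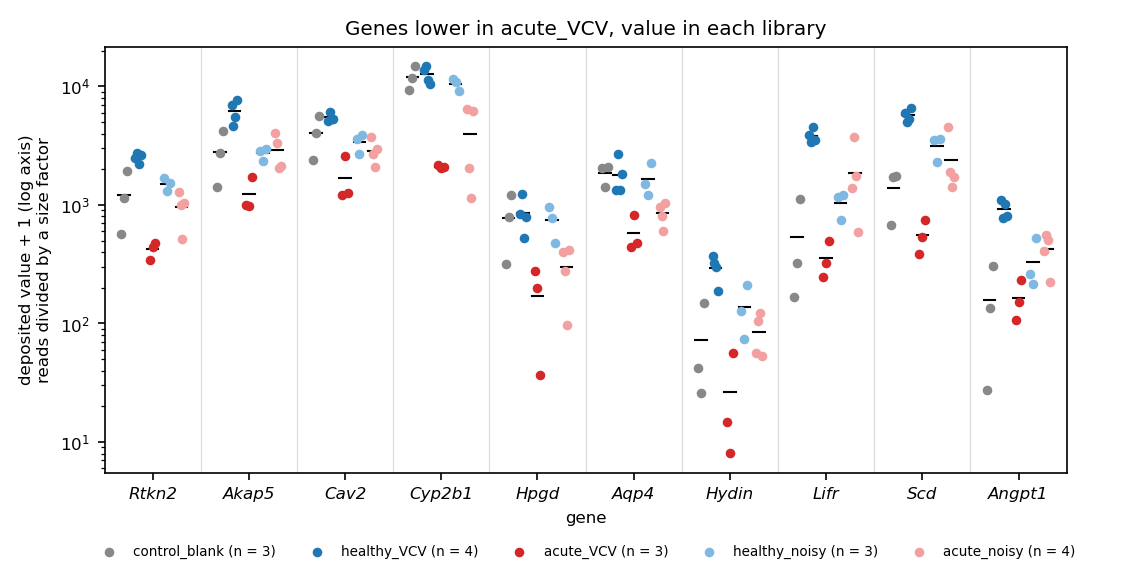
Deposited value + 1 (log axis) of 10 genes that were lower in acute_VCV, with 1 point per library in each of 5 groups and a bar at the group mean. Rtkn2, Cav2, Cyp2b1, Hpgd and Aqp4 lie lower in acute_VCV than in both healthy_VCV and control_blank on average, while Lifr and Angpt1 lie near the control_blank level.

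Genes of coagulation and of plasminogen activation were higher in 7 of 15 tested and lower in 2 (1 without acute_VCV_040 or healthy_VCV_060). F3, tissue factor, which starts coagulation, read 14429, 15336 and 20225 against 2252, 3378, 2211 and 2081.4 and rose by 2.76 ± 0.34 (limma adjusted p = 8.98e-07). Plau, urokinase, rose by 1.97 ± 0.30, and Tfpi2, a protease inhibitor, read 287, 592 and 538 against 19.9, 12.2, 28 and 7.11. Its namesake Tfpi, the inhibitor of tissue factor, fell with a difference of -0.75 ± 0.18. Timp1, an inhibitor of matrix metalloproteinases, read 14656, 17751 and 18100 against 648, 601, 888 and 531 and rose by 4.68 ± 0.51 (limma adjusted p = 1.62e-07). Of 12 matrix proteases and inhibitors, it was the 1 that rose and 3 fell, with 2 higher and 1 lower without acute_VCV_045, and 2 higher without acute_VCV_040. Of these, Timp3 was at -0.80 ± 0.24, Timp4 at -1.47 and Mmp11 at -1.04. Timp4 did not pass without acute_VCV_045, acute_VCV_049, healthy_VCV_025 or healthy_VCV_057, at -1.43 to -1.26, nor Mmp11 without acute_VCV_045, at -0.75. Has1, a hyaluronan synthase, read 168, 191 and 177 against 32.3, 25.4, 19.3 and 15.8, a difference of 2.94 ± 0.89.

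Among vessel genes, Adm, the vasodilator adrenomedullin, read 974.6, 1609.5 and 1169 against 159.9, 207, 195 and 122 and rose by 2.86 ± 0.44. Selp, the endothelial and platelet selectin that slows leukocytes, read 1109.7, 2528 and 6105 against 209.6, 256, 734 and 509, a difference of 2.77 ± 0.65. Its acute_VCV values were widely spread, with acute_VCV_049 the highest and none overlapping healthy_VCV. Angpt2, which loosens endothelial contacts, rose by 1.09 ± 0.32, and Angpt1, which stabilises them, read 107, 149.9 and 231 against 1109, 770.4, 1022 and 808, a difference of -2.56 ± 0.55. Against control_blank, Angpt1 in acute_VCV was at 0.57 and did not pass, while in healthy_VCV it was higher by 3.13. Of 17 endothelial markers, 3 were higher and 6 lower (26.1% and 26.4% of all genes). Calcrl, the receptor for adrenomedullin and calcitonin gene-related peptide, read 1121, 874 and 609 against 5992, 7763, 3421 and 5284, a difference of -2.68 ± 0.39 (limma adjusted p = 5.85e-06). Esam, a junction protein, rose by 1.29 ± 0.20. Cdh5, another junction gene, at -0.41 and Flt1, a VEGF receptor, at -0.77 did not pass. The summed level of the 17 markers was 79755 to 97543 in acute_VCV and 99576 to 110860 in healthy_VCV.

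Among enzymes of prostaglandins and leukotrienes, 5 of 17 were higher and 3 lower, against 26.1% and 26.4% of all genes, and 3 were higher without acute_VCV_045. Ptges, the inducible synthase of prostaglandin E2, read 188, 257 and 649.8 against 8.28, 4.7, 50.8 and 20.5, a difference of 4.34 ± 0.80 (limma adjusted p = 9.24e-05). Hpgd, which degrades prostaglandins, read 274, 196 and 36 against 844, 1227, 529 and 795, a difference of -2.69 ± 0.55. Ptgs2, the inducible cyclooxygenase upstream of Ptges, was at -0.12 and did not pass, and Ptgs1, the constitutive one, fell with a difference of -0.68 ± 0.20.

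Metallothioneins, small metal-binding proteins, rose. Mt2A read 4632, 12944 and 12673 against 244, 351, 772 and 404, a difference of 4.49 ± 0.71, and Mt1a rose by 3.84 ± 0.55. In both, acute_VCV_040 was the lowest of its group. Hmox1, heme oxygenase, read 5504, 6844 and 5471 against 863, 1191, 1611 and 1366 and rose by 2.27 ± 0.40. The Nrf2 targets Nqo1 at 0.05 and Gclm at -0.05 did not pass, and Cat, catalase, fell with a difference of -0.97 ± 0.16. In all, 8 of 17 antioxidant and metallothionein genes were higher and 2 lower, with 1 lower when any of acute_VCV_049, healthy_VCV_025, healthy_VCV_060 and healthy_VCV_062 was left out. Of 14 heat shock proteins and cofactors, 10 were higher and 0 lower, with a median of 1.02. Hspa1a read 27186, 37008 and 48017 against 8327, 2284, 2890.5 and 2049, a difference of 3.48 ± 0.81, and it has a near-identical neighbour gene, so its reads may be shared. Hspe1, the mitochondrial cochaperonin, read 3176, 3764 and 4109 against 968, 924, 995 and 893 and rose by 1.95 ± 0.18 (limma adjusted p = 2.39e-08). Hspb1, a small heat shock protein, rose by 1.81 ± 0.29, and Hsp90aa1 was at 0.16 and did not pass. Against control_blank, 4 of the 14 were higher and 0 lower in acute_VCV (20.6% and 16.7% of all genes), and 0 higher and 9 lower in healthy_VCV (29.3% and 28.1%).

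Promoters of 2 heat shock cofactors are shown because each holds GAANNTTC, a short match to the heat shock element, near its start (RefSeq, build GRCr8, 5′ to 3′, match in capitals).
Dnajb1 (chr19:41431142-41431391, minus strand): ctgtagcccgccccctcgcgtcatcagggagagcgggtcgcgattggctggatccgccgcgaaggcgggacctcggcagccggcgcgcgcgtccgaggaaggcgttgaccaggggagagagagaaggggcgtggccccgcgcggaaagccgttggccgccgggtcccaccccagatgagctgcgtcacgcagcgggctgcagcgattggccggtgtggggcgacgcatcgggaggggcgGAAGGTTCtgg
Hsph1 (chr12:10427118-10427367, plus strand): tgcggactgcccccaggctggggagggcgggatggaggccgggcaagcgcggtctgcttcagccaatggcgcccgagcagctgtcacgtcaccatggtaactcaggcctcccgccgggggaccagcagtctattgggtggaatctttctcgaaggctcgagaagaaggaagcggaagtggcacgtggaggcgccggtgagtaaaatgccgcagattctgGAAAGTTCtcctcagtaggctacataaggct
Dnajb1, the cofactor of Hsp70, read 2599, 2532 and 2742 against 1363, 1292, 1331 and 1134, a difference of 1.04 ± 0.27, and its match lies 4 to 11 bases before the start. Hsph1, a nucleotide exchange factor of Hsp70, read 3839.6, 5415 and 5956 against 2285, 2501, 2357 and 1469, a difference of 1.24 ± 0.31, and its match lies 24 to 31 bases before the start. Of the 10 heat shock genes that rose, 8 have a promoter in the table and 7 of these hold the match (Hsph1, Hspb1, Dnajb1, Dnaja1, Hspe1, Hspd1 and Bag3). Of these, Dnaja1 (0.79 ± 0.28) did not pass without acute_VCV_045, acute_VCV_049 or healthy_VCV_062, at 0.69 to 0.74. The match, which reads the same on both strands, is in 7.02% of all promoters of this length. Hspe1 and Hspd1 are transcribed from a shared region in opposite directions, so their windows may share a match.

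Glycolysis and hypoxia genes were higher in 11 of 20 tested and lower in 1 (2 without acute_VCV_045 or acute_VCV_049), with a median of 0.68. Ldha, which makes lactate, read 7918, 8662 and 9359.9 against 2251, 2179.5, 3508 and 2469 and rose by 1.76 ± 0.19 (limma adjusted p = 1.29e-07). The lactate transporter Slc16a1 rose by 1.40 ± 0.27, and the enzymes Eno1, Tpi1 and Pgk1 rose by 1.31 ± 0.14, 1.19 ± 0.17 and 1.12 ± 0.18. Pfkm, a muscle form of phosphofructokinase, was the member that fell, with a difference of -1.29 ± 0.19. Genes of glycolytic enzymes have many near-identical pseudogenes, and how the authors counted ambiguous reads is not given in the sources used here, so their values are uncertain. Of 17 genes of the unfolded protein response and amino acid stress, 8 were higher and 3 lower, with 5 higher without acute_VCV_049. Atf4, the factor that controls the amino acid response, read 14574, 16790 and 19010 against 6934, 6474, 6265 and 6276 and rose by 1.36 ± 0.22. Edem1, which targets misfolded proteins for degradation, fell with a difference of -1.37 ± 0.24, and Trib3, a target of Atf4, with one of -1.18 ± 0.32.

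Of 20 neutrophil markers, 6 were higher and 1 lower, with a median of 0.87, and over all genes 26.1% were higher. Leaving out acute_VCV_049 left 1 higher (median 0.43), and leaving out acute_VCV_040 gave 10 (median 1.17). Against control_blank the median was 4.05 in acute_VCV, with 18 higher (20.6% of all genes), and 2.94 in healthy_VCV, with 16 higher (29.3% of all genes). The summed level of the list was 41764 to 160380 in acute_VCV, 26552 to 48360 in healthy_VCV and 4124 to 5780 in control_blank. S100a9, a calcium-binding protein of neutrophil cytosol, read 17426, 44907 and 61267 against 10011, 10498, 14701 and 11535, a difference of 1.65 ± 0.48. Lcn2, a lipocalin of neutrophil granules that epithelium also makes, read 7076, 26649 and 31323 against 374, 1037, 4719 and 1876, a difference of 3.73 ± 1.30. In both, acute_VCV_040 was the lowest of its group. S100a9 did not pass without acute_VCV_049, at 1.28 (limma adjusted p = 0.0504). Lcn2 did not pass without acute_VCV_045, acute_VCV_049 or healthy_VCV_025, at 3.11 to 3.45. Other members did not pass, with the granule protease Mmp8 at 0.06, the chemotactic peptide Prok2 at 0.35 and the receptor Fpr1 at -0.14. Cybb, the catalytic subunit of the phagocyte oxidase, fell, reading 166, 568 and 848 against 1415, 1503, 2263 and 1899.7, a difference of -2.01 ± 0.51, or -1.32 without acute_VCV_040. Its difference from control_blank was 0.56 in acute_VCV, which did not pass, and 2.57 in healthy_VCV, which did.

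Over all genes 26.1% were higher and 26.4% lower, the shares to set beside each marker count here. Of 17 macrophage markers, 3 were higher and 5 lower, with 2 lower without acute_VCV_040 or healthy_VCV_062 and 3 without acute_VCV_049. Lower members included Mertk, a receptor for the uptake of dead cells, at -1.39 ± 0.25 and Siglec1, a sialic acid receptor, at -1.54 ± 0.36. Cd14 of the same list rose by 1.46 ± 0.39. Against control_blank, 10 of the 17 were higher and 0 lower in acute_VCV (20.6% and 16.7% of all genes), with Mertk higher by 0.72. In healthy_VCV 11 were higher than in control_blank and 0 lower (29.3% and 28.1%). Of 19 T and NK cell markers, 2 were lower and 1 higher, both below the shares over all genes. The lower ones were Cd4 at -1.09 ± 0.31 and Cd28 at -1.39 ± 0.45. From control_blank they were at -0.05 and 0.23 in acute_VCV, neither past the test, and higher by 1.04 and 1.62 in healthy_VCV. Cd2 was higher than in healthy_VCV by 0.76 ± 0.29, and at 0.54 to 0.72 it did not pass without acute_VCV_040, healthy_VCV_057 or healthy_VCV_062. Of 14 B and plasma cell markers, 3 were higher and 0 lower, with a median of 0.69. None was higher without acute_VCV_040, acute_VCV_049, healthy_VCV_057 or healthy_VCV_062, and 5 were without healthy_VCV_025. Erythroid markers (5 tested) and cardiac muscle markers (11 tested) had 0 members past the limma test in either direction. With these groups alone 1 erythroid marker was lower and 2 cardiac markers higher, and 1 cardiac marker was higher without acute_VCV_049. Summed levels of the cardiac markers were 7025 to 16981 in acute_VCV and 1988 to 10563 in healthy_VCV. Of 7 smooth muscle and pericyte markers 3 were higher, including Des at 1.19 ± 0.20, and 2 lower, including Rgs5 at -1.42 ± 0.25. Against control_blank, Des was at -0.34 in acute_VCV and -1.53 in healthy_VCV, and Rgs5 at -0.55 and 0.87. Of 11 fibroblast markers 0 were higher (1 without acute_VCV_040 or healthy_VCV_062) and 4 lower. Col1a1, the main fibrillar collagen, read 10957, 9391 and 8429.7 against 28770, 28111, 23988 and 18766, a difference of -1.36 ± 0.45, and in control_blank it read 10914, 6157 and 11100, from which acute_VCV was at 0.07.

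**Figure D3:**
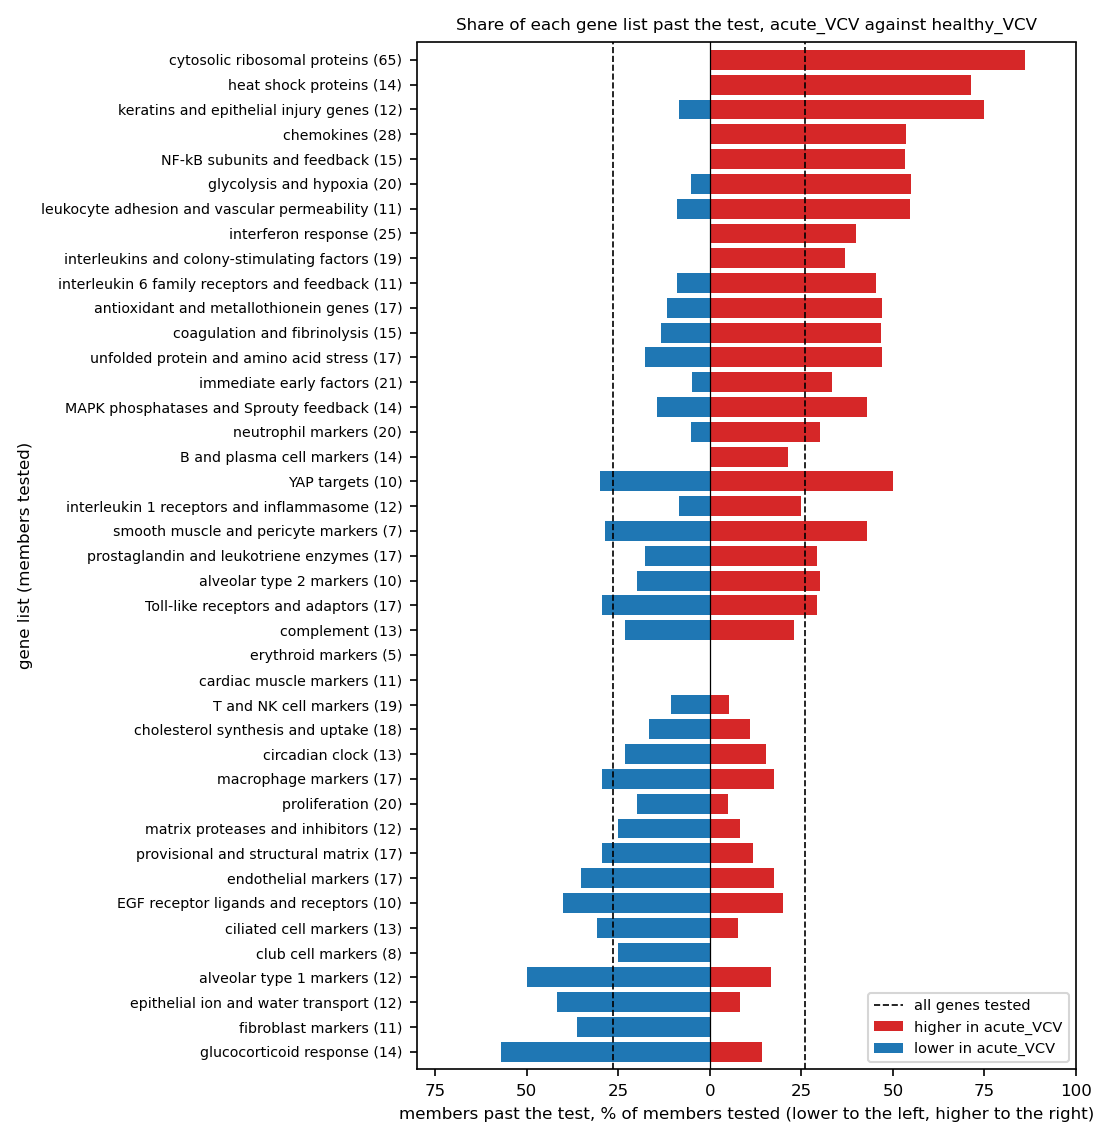
Share of the members tested in each of 41 gene lists that were higher (red, to the right) or lower (blue, to the left) in acute_VCV than in healthy_VCV by limma. The dashed lines mark the shares over all genes tested, 26.1% higher and 26.4% lower, and the number of members tested is in brackets.

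Of 14 glucocorticoid response genes, 8 were lower and 2 higher, with a median of -0.65. The number lower was 4 without acute_VCV_040 and 5 without healthy_VCV_057, and 1 was higher without acute_VCV_045, acute_VCV_049 or healthy_VCV_025. Zbtb16, a zinc finger factor induced by glucocorticoids, read 386, 1090.5 and 1014 against 3505, 4033, 4186 and 3014, a difference of -2.28 ± 0.59. In control_blank it read 578, 147 and 256. Klf9, another such factor, read 584, 1159 and 1182 against 2738, 3116, 2622 and 2794, a difference of -1.60 ± 0.27 (limma adjusted p = 3.59e-05), and 599, 433 and 957 in control_blank. Nr3c1, the glucocorticoid receptor, had a difference of -0.65 ± 0.16, while Fkbp5 at -0.26 and Per1 at -0.55 did not pass. Against control_blank, 3 of the 14 were higher and 0 lower in acute_VCV (20.6% and 16.7% of all genes), and 7 were higher and 1 lower in healthy_VCV (29.3% and 28.1%). Of 13 clock genes, 2 were higher (1 without acute_VCV_049) and 3 lower in acute_VCV than in healthy_VCV, against 26.1% and 26.4% of all genes. With these groups alone 3 were higher and 7 lower. Tef, an output factor of the clock, read 1278, 804 and 751 against 3115, 3275, 2648 and 3059, a difference of -1.72 ± 0.27, and Clock itself had a difference of -1.84 ± 0.42. The time of day at sampling is not given in the labels.

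The 15 largest falls, at -4.96 to -3.22, included Slc26a3, Upk3b, Hydin, Odz4, Unc5d, Frem2, Prp2l1, Lifr, Scd, Zbtb20, Reps2, Lrp2, Slitrk6 and Gpm6a. Frem2, an extracellular matrix protein of epithelial adhesion, read 96.1, 62.5 and 150.3 against 1478, 1129, 1689 and 976, a difference of -3.72 ± 0.42 (limma adjusted p = 2.92e-07), and 225, 243 and 355 in control_blank. Lrp2, the endocytic receptor megalin, read 68.3, 50.4 and 112 against 622, 613, 755 and 949, with 41.3, 61.4 and 176 in control_blank. For both genes healthy_VCV stood above the other groups. Of the 15, 11 were higher in healthy_VCV than in control_blank, against 29.3% of all genes, and 8 were lower in acute_VCV than in control_blank, against 16.7%. Both comparisons share libraries with the one that chose these genes. Slc26a3, an anion exchanger, and Upk3b, a protein of the mesothelial surface, were among the 8, at -3.50 and -3.32. Slc26a3 read 0, 3.19 and 0 against 48, 78, 70.1 and 22.1, so its fitted difference depends on the pseudocount. Upk3b read 2.22, 19.1 and 19.6 against 305, 194, 240.1 and 56.9, and without acute_VCV_040 it was at -3.06 (limma adjusted p = 0.0537).

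The length of the gene went with the direction of the difference. Of 10941 genes tested under a symbol, 98.68% have a genomic span, from start to end with introns, in the RefSeq table on GRCr8. Across the 10797 of them with a span, Spearman's rho between span and the difference of acute_VCV from healthy_VCV was -0.48, a description over genes that share 7 libraries. In the 1080 genes with the shortest span, 49.4% were higher and 7.04% lower, with a median of 0.57. In the 1080 genes with the longest, 5.28% were higher and 61.4% lower, with a median of -0.87. Span went with the difference of healthy_VCV from control_blank in the opposite direction, with a rho of 0.41, and little with that of acute_VCV from control_blank (-0.04) or of acute_noisy from healthy_noisy (0.11). The 15 largest rises have a median span of 4.73 kb and the 15 largest falls one of 157 kb. Cytosolic ribosomal protein genes, which are short, were higher in 56 of 65 tested and lower in 0, with a median of 0.99. Against control_blank they were higher in 3 and lower in 0 in acute_VCV (median 0.09), and higher in 2 and lower in 52 in healthy_VCV (median -0.85, against 28.1% lower over all genes). Their reads may be shared with near-identical pseudogenes.

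**Figure D4:**
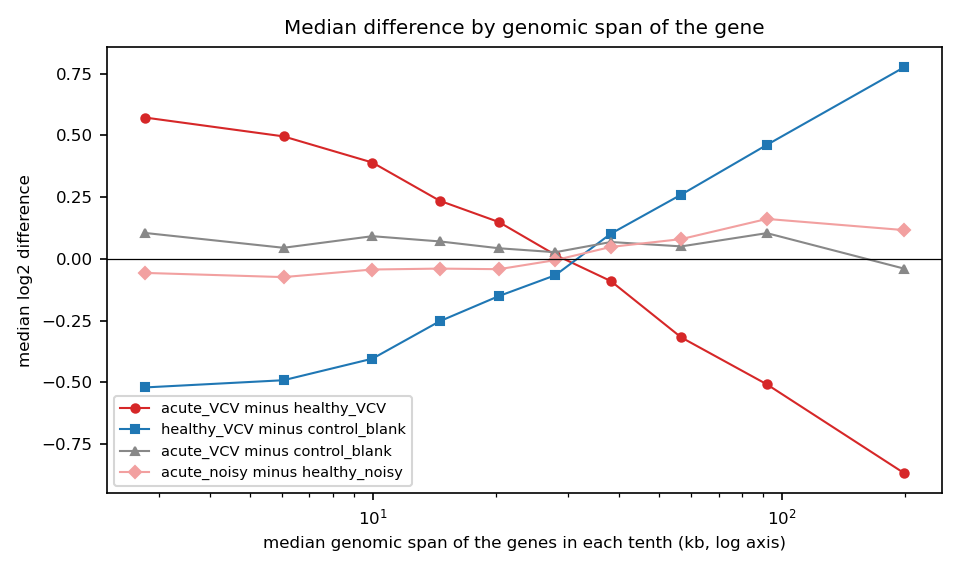
Median log2 difference (vertical axis) in 10 bins of genes by genomic span, each of 1079 or 1080 genes, against the median span of the bin (kb, log axis), for 4 comparisons. The red line (acute_VCV minus healthy_VCV) falls from 0.57 to -0.87 and the blue line (healthy_VCV minus control_blank) rises from -0.52 to 0.78, while the other 2 stay between -0.07 and 0.16.

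Beside this trend, each result was also computed after the values of each library were centred within 20 bins of genes of like span, an alternative chosen after seeing the data. It gave 3520 genes higher and 3515 lower, of which 5697 were among the 7829. Keratins and epithelial injury genes were then higher in 9 of 12, interleukins and colony-stimulating factors in 7 of 19, heat shock genes in 8 of 14 and glycolysis genes in 11 of 20. Chemokines went from 15 to 8 higher with 2 lower, interferon genes from 10 to 2 higher, neutrophil markers from 6 to 3 higher, B and plasma cell markers from 3 to 0 higher, unfolded protein genes from 8 to 3 higher and ribosomal genes from 56 to 34 higher with 2 lower. MAPK phosphatases and Sprouty genes went from 6 to 2 higher, interleukin 6 family receptors and feedback genes from 5 to 2 higher with 2 lower, macrophage markers from 3 to 0 higher and smooth muscle markers from 3 to 1 higher. EGF family genes were higher in 4 and lower in 3, YAP targets higher in 5 and lower in 1, and Toll-like receptors and adaptors higher in 1 and lower in 7, from 5 each. Glucocorticoid genes were lower in 6 and higher in 3, and alveolar type 1 markers lower in 5 and higher in 2. Among genes named above, S100a9, Cd14, Cd2, Socs3, Isg15, Il1rn, Cxcl10, Cxcl11, Rela, Egfr, Nr3c1, Dnajb1 and Dnaja1 did not pass after it, while Nfkb1 (0.71), Scnn1a (-0.61) and Cxcl3 (-0.79) did. The cause of the trend with span was not tested, and title series cannot be told apart from injury in it.

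The same injury label was compared under variable ventilation in other libraries, acute_noisy against healthy_noisy. There 3987 genes passed the test (26.7%), 1922 higher (12.9%) and 2065 lower (13.9%). Of these, 1758 also passed in the same direction under constant ventilation, which is 44.1% of the calls under variable and 22.5% of those under constant ventilation. Another 282 passed in opposite directions. Across 14908 genes the 2 sets of differences had Pearson's r of 0.32 and Spearman's rho of 0.19, a description with no p. The count under variable ventilation depends on the fit. With only these 2 groups fitted, 8 genes passed, and with only title series 15, 0 did by limma (8.09% of genes had an unadjusted p under 0.05), while edgeR called 4157, 63.6% of them higher against 48.2% by limma. Without any 1 of acute_noisy_047, acute_noisy_050, healthy_noisy_061 and healthy_noisy_029 it was 1555 to 2256, and without acute_noisy_053 it was 6146. Rises shared by both modes numbered 1027 and falls 731. Large rises under constant ventilation recurred more often than small ones. Of 62 genes higher by at least 3 log2 units, 53 were higher under variable ventilation (85.5%, against 12.9% of all genes), and of 2522 higher by less than 1 unit, 419 were (16.6%). Of 72 genes lower by at least 3 units, 13 were lower under variable ventilation (18.1%, against 13.9% of all genes).

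Of the 15 largest rises, 14 were also higher in acute_noisy than in healthy_noisy, and Reg3b, a lectin of injured epithelium, was not past the test at 2.34. These calls are from the fit of all 28 libraries, and 8 of all genes passed with only these 2 groups fitted. Csf3 was among the 14 with overlapping groups, at 4.89 in acute_noisy_053 and 9.15 in healthy_noisy_029. Krt17 read 2234, 6028, 3754 and 2219.8 in acute_noisy_046, acute_noisy_047, acute_noisy_050 and acute_noisy_053, and 0, 10.8 and 14.3 in the healthy_noisy libraries, a difference of 9.17 ± 0.76. Il24 read 462, 856, 633 and 495 against 3.92, 0 and 3.07, a difference of 7.77 ± 0.73. Timp1 rose by 3.59 ± 0.51 there. In contrast, 1 of the 15 largest falls, Slitrk6, was lower under variable ventilation. Lifr read 1377, 3706, 1736 and 587 in acute_noisy and 1167, 738 and 1222 in healthy_noisy, with acute_noisy_047 the highest, and its difference was 0.57 ± 0.48. The acute_noisy libraries split by title series. The chi-square per gene between reads was 39.15 for acute_noisy_047 with acute_noisy_050 (title series 14) and 45.88 for acute_noisy_046 with acute_noisy_053 (15). Across the 2 title series it was 107.7 to 182.9. Values of like size also occurred within 1 title series, at 103.1 to 172.2 between control_blank libraries and 108.3 for acute_VCV_040 with acute_VCV_049. In healthy_VCV, healthy_VCV_062 of title series 15 was at 24.15 to 28.6 from the libraries of title series 14. The cause of the split was not tested. Il6 read 1435 and 848 in the libraries of title series 14 and 129 and 78.2 in those of 15.

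**Figure D5:**
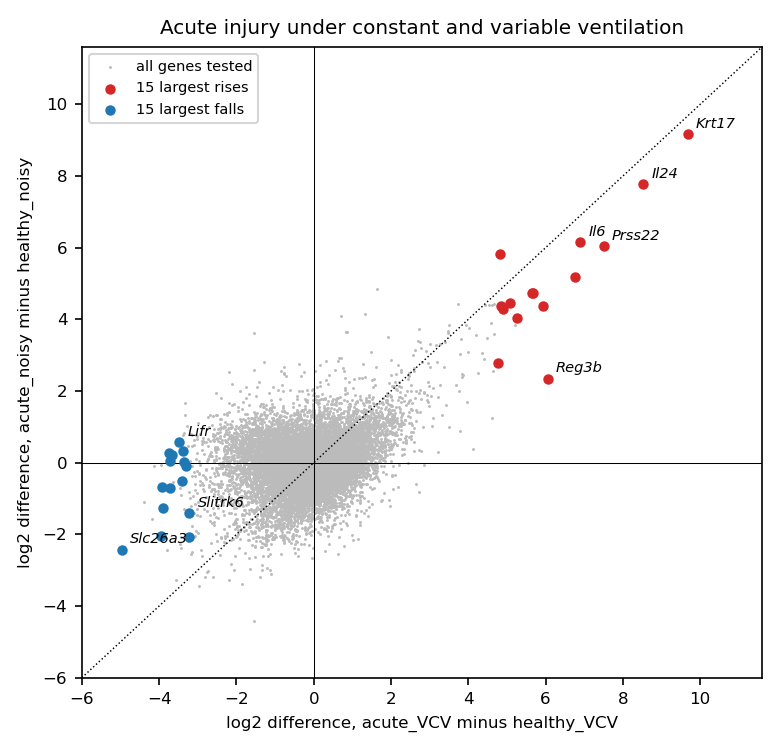
Log2 difference under constant ventilation (horizontal axis) against that under variable ventilation (vertical axis) for the genes tested (grey), with the 15 largest rises (red) and 15 largest falls (blue) under constant ventilation. The dotted line marks equal differences. Most red points lie near or somewhat below it, from 2.34 to 9.17 on the vertical axis, and the blue points lie between -2.42 and 0.57.

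The difference between the 2 modes was tested as an interaction, which 5813 genes passed (39.0%), 2886 with a higher value under constant ventilation (19.4%) and 2927 with a lower one (19.6%). Of the 15 largest rises 0 passed it and of the 15 largest falls 12 did, all lower under constant ventilation, and it includes the libraries that chose these genes. Extremes named here are of genes that passed it, with a symbol and a mean of 50 or more in any group compared. The lowest value among them was that of Retn, the cytokine resistin, at -5.15 ± 1.89, which was at -1.53 under constant and 3.62 under variable ventilation. Itga1, a collagen-binding integrin, was lower under constant ventilation (-2.53 ± 0.64) and higher under variable (1.94 ± 0.64), a tested difference of -4.47 ± 0.90 (limma adjusted p = 0.000969). Cyp21a1, a steroid hydroxylase, was among the highest at 2.998 ± 0.85 (limma adjusted p = 0.00816), reading 96.7, 136 and 119 in acute_VCV and 22.4, 22.6, 42.9 and 34 in healthy_VCV. Cldn4, Krt8 and Ctgf rose in both modes and more under constant ventilation, with tested differences of 1.76 ± 0.48, 1.00 ± 0.36 and 1.11 ± 0.32. Rtkn2 and Akap5 passed it as well, at -1.86 ± 0.51 and -2.38 ± 0.49. Title series also differs between the modes, since acute_noisy has 2 libraries each in 14 and 15 and all healthy_noisy libraries are in 15. The effect of this on the interaction was not tested beyond leaving out the acute_noisy libraries of title series 14, after which 4060 genes passed. The healthy_VCV libraries of title series 14 stayed in that fit.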

How the data were processed

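Lung mRNA of 28 libraries in 8 labelled groups was used, and 7 libraries enter the comparison described. CASAVA 1.8.0, BWA, bedtools 2.11, DESeq 1.8.3 and the genome build rn4 are named in the submitters' processing notes, with no role or order given here. The deposited signal is a read count per gene (Ensembl release 67, per the file headers) divided by 1 size factor per library. Multiplied back, the deposited values gave whole reads within 0.1 read for 100.0% of values in every library, and total reads per library come from these. How reads shared between genes were counted is not given in the sources used here.

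Values were taken as log2(value + 1), and genes with a mean of at least 10 over all libraries were fitted with limma 3.58.1 (R 4.3.3, trend and robust) on 8 group means over the 28 libraries, so the groups share 1 estimate of the spread. P-values were adjusted by Benjamini-Hochberg over 14908 genes with a threshold of 0.05. On simulated data made from these libraries, the comparison of acute_VCV with healthy_VCV recovered 91% of genes changed 4-fold and 49% of those changed 2-fold. The interaction recovered 81% and 29%. The simulation changed 100 genes per fold, far fewer than the 7829 that passed in the data, and held no difference between title series. Recovery in the real comparison may differ for these reasons. Replicates within acute_VCV and within healthy_VCV differed by more than sampling noise, with a chi-square per gene of 24.15 to 108.3.

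Named genes were the 15 largest rises and 15 largest falls as defined in the text, up to 4 called members of each of 41 gene lists with the largest differences, the 30 genes of a separate list, and the 5 highest and 5 lowest interaction values as restricted in the text. Other list members were named for their role, called or not, after their values were seen, and some genes that the rule names are not reported here. The comparison, the gene lists and the rules were chosen with earlier results of these data known. Alternatives were a pseudocount of 10, no filter, quantile normalization, edgeR 4.0.16 on the recovered reads, fits of the compared groups alone, restriction to title series 15 where possible, and leaving out each library. Centring within bins of gene span was added after seeing the data. RefSeq GRCr8 was matched by symbol for spans and promoters only, since the files use rn4, and no rn4 coordinates were used.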

Additional observations from a re-analysis of the deposited data

Results flagged for a closer look

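The 4 libraries of healthy_VCV were searched, over 176 of the genes named in the text, for 1 that stood far from the other 3. Such a library was found for 9 genes, which is near the share that chance gives, about 1 in 20 groups. In healthy_VCV_025 the deposited value stood apart for Angpt2 (287), Hspa1a (8327) and Krt14 (60.5). In healthy_VCV_057 the deposited value stood apart for F3 (3378). In healthy_VCV_060 the deposited value stood apart for Cat (2981), Csf3 (2.63), Egf (186) and Pgk1 (2882). In healthy_VCV_062 the deposited value stood apart for Sftpc (232978). 

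Acute injury and its control differed by unlike amounts under constant and variable ventilation for 5813 genes, by the interaction term in limma. Among the genes named in the text, the constant minus variable log2 difference was lowest for Retn (-5.15), Itga1 (-4.47), Lifr (-4.04), Unc5d (-4.03), Prp2l1 (-3.90), Zbtb20 (-3.71), Reps2 (-3.37), Hydin (-3.24), Lrp2 (-3.21), Clock (-3.05), Cybb (-3.03), Frem2 (-3.01), Cd28 (-2.98), Angpt1 (-2.94) and Calcrl (-2.93). It was also below 0 for Scd (-2.88), Fbn1 (-2.72), Odz4 (-2.62), Akap5 (-2.38), Flt1 (-2.21), Egfr (-2.19), Bgn (-2.16), Zbtb16 (-2.11), Rgs5 (-1.91), Rtkn2 (-1.86), Spred2 (-1.86), Slitrk6 (-1.82), Traf6 (-1.75), Col1a1 (-1.63), Siglec1 (-1.55) and Cav2 (-1.52). Smaller negative values were those of Edem1 (-1.49), Klf9 (-1.47), Mertk (-1.38), Erbb3 (-1.26), Cd4 (-1.25), Cd59 (-1.16), Clic5 (-1.12), Egf (-1.09), Tyms (-1.06), Tfpi (-0.97), Timp3 (-0.88), Slc12a2 (-0.68) and Nr3c1 (-0.64). It was above 0 for Cyp21a1 (2.998), Cldn4 (1.76), Scgb1a1 (1.61), Clcf1 (1.46), Isg20 (1.26), Tnip2 (1.14), Ctgf (1.11), Sftpc (1.10), Atf4 (1.09), Sftpb (1.04), Lpcat1 (1.02), Krt8 (1.00), Hspe1 (0.91), Ldha (0.90), Eno1 (0.89), Esam (0.71) and Hopx (0.64).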

How the results depend on the processing

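No paired analysis was possible because replicate numbers are not shared between the compared groups. The count of 7829 genes between acute_VCV and healthy_VCV was 7901 with a pseudocount of 10, 8006 without a filter, 7700 after quantile normalization, 7948 with edgeR, 8686 with these groups alone and 7035 when centred within bins of gene span, and 6851 to 7376 without 1 library. Between acute_noisy and healthy_noisy it was 8 with these groups alone and 0 in title series 15 alone by limma (8.09% of genes at an unadjusted p under 0.05), against 3987, and 1555 to 6146 without 1 library. Between acute_VCV and control_blank it was 3573 with these groups alone and 3730 to 5923 without 1 library, against 5563. Between healthy_VCV and control_blank it was 6642 to 8658, and for the interaction 4320 to 6757, without 1 library. The cause of these shifts was not tested. Of 207 genes named by rule or in the text and past the test, 174 kept it when centred by span, and 182 to 201 did without 1 library. None changed direction under any alternative run. Quantile normalization moved the median of all genes in healthy_VCV against control_blank from -0.03 to -0.13. Healthy_VCV libraries had fewer reads than acute_VCV libraries, which limits genes of low value, and the title series cannot be told apart from injury.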

Other observations

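Several gene groups had members past the test in both directions between acute_VCV and healthy_VCV, and their shares are given against 26.1% higher and 26.4% lower over all genes. Of 17 Toll-like receptors and adaptors, which sense microbes and tissue damage, 5 were higher and 5 lower, or 1 and 7 when centred by gene span. Without acute_VCV_040 it was 5 and 2, and without acute_VCV_049 it was 3 and 4. The number lower was 3 without healthy_VCV_057 or healthy_VCV_062. The adaptor Myd88 was higher by 0.77 ± 0.19 (0.24 and not past the test when centred by gene span), while the receptor Tlr3 and the adaptor Traf6 were lower, with differences of -1.08 ± 0.27 and -1.22 ± 0.27. Of 12 interleukin 1 receptors and inflammasome genes, 3 were higher and 1 lower, with 1 higher without acute_VCV_045 or acute_VCV_049, led by Il18bp, the secreted inhibitor of interleukin 18, which read 314, 473 and 479.8 against 152, 94, 219.9 and 138 (1.52 ± 0.34). Of 13 complement genes, 3 were higher and 3 lower, with 0 higher without acute_VCV_045 and 1 without healthy_VCV_057. Cd59, which protects host cells, was lower, with a difference of -1.23 ± 0.24. Of 11 genes of leukocyte adhesion and vascular permeability, 6 were higher and 1 lower, or 4 and 2 when centred by gene span.

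Of 17 genes of provisional and structural matrix, 2 were higher and 5 lower, with a median of -0.78, and with these groups alone 3 were higher and 8 lower. Fbn1, the fibrillin of elastic microfibrils, was lower by a difference of -1.996 ± 0.43 and was at 0.04 from control_blank in acute_VCV and 2.03 in healthy_VCV. Bgn, a small proteoglycan, was lower by a difference of -1.59 ± 0.42. The matrix list was higher in 7 and lower in 0 against control_blank in acute_VCV (median 1.05, with 20.6% of all genes higher), and higher in 13 and lower in 0 in healthy_VCV (median 1.62, with 29.3% higher). Of 20 proliferation genes, 1 was higher (0 without acute_VCV_045 or acute_VCV_049, 2 without healthy_VCV_062) and 4 lower, among them Cenpf, a kinetochore protein, at -1.51 ± 0.33 and Tyms, which makes thymidylate, at -1.48 ± 0.22. Of 18 genes of cholesterol synthesis and uptake, 2 were higher and 3 lower, with 1 lower without acute_VCV_040, acute_VCV_045 or healthy_VCV_060.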
